A study of Caenorhabditis elegans with 2 samples.

Results

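The genes described here encode the vacuolar ATPase (V-ATPase) and the core autophagy machinery of the nematode Caenorhabditis elegans. They were taken from the Ensembl release 115 annotation of WBcel235, the assembly also called ce11, as the protein-coding genes whose symbol is vha, atg, lgg or epg followed by a number, together with bec-1, unc-51, vps-34 and sqst-1. This rule used no measured value and found 47 of 19973 protein-coding genes, 20 of the V-ATPase and 27 of autophagy. Binding was measured by ChIP-seq, in which DNA that co-precipitates with a protein is sequenced, for an eGFP-tagged AHA-1 in whole first-stage (L1) larvae of both sexes. The larvae were of strain OP124, with the unc-119(ed3) allele on chromosome III and the insertion wgIs124 for aha-1, whose driving sequence the labels do not name. There were 2 biological replicates in 1 group, grown in a way that the labels leave out, and with no other condition nothing could be compared between conditions.

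AHA-1 corresponds to mammalian ARNT, with which several bHLH-PAS transcription factors, HIF-1 of the hypoxia response among them, pair to bind DNA. The V-ATPase is a rotary proton pump that acidifies lysosomes and other compartments, with a cytosolic V1 sector that hydrolyses ATP and a membrane V0 sector that moves protons. Autophagy encloses cytoplasm in a double membrane: the UNC-51 kinase complex starts it, a lipid kinase complex with VPS-34 and BEC-1 marks the membrane, a ubiquitin-like conjugation system attaches LGG-1 and LGG-2 to it, and fusion with lysosomes completes it. In C. elegans, HLH-30, the ortholog of mammalian TFEB, is known to activate many genes of both groups through the E-box CACGTG.

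Each gene was scored by the strongest region of the pooled relaxed list, which holds peaks and background, with its summit in the promoter window, which reached 1000 bp upstream and 200 bp downstream of each annotated transcript start. The score is the signal value that the authors deposited for the region, relative to a control and on a scale that was not stated, so it ranks regions within a list and is not compared between lists. The pooled list held 30000 regions with a median signal of 4.27, and the authors' thresholded list, kept by the irreproducible discovery rate (IDR), held its 530 strongest regions. The number of reads behind the regions is unknown. In whole larvae, binding in few cells and weaker binding in many cells cannot be told apart.

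AHA-1 peaks in the thresholded list were found at 5 of the 47 genes: lgg-2, epg-7, lgg-1 and atg-18 of autophagy and vha-8 of the V-ATPase. That was 10.6% of the set, against 2.73% of all protein-coding genes. Of the 27 autophagy genes it was 4 (14.8%), and of the 20 V-ATPase genes 1 (5%). The threshold fell among these genes: the last peak kept had a signal of 18.35 and the first region left out, of rank 531, had 18.34 and was that of vha-12. A pooled region of any strength lay in the window of 35 of the 47 genes (74.5%), against 43.3% of all genes. By class these were 21 of 27 autophagy genes and 14 of 20 V-ATPase genes. Without replicate 1, from the replicate 2 list alone, they were 22 of 47 genes, and 7 of 20 V-ATPase genes (35%), against 28.9% of all genes. Without replicate 2, the 530 strongest regions of replicate 1 lay at 3 of the 47 genes, against 2.63% of all genes. With genes that had no region counted as 0, the median signal was 4.84 over the 47 genes and 0 over all genes. Among genes with a region, the median was 6.73 for the set and 4.92 for all genes. The top 10% of protein-coding genes by score, 1997 genes, held 14 of the 47 genes (29.8%).

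**Figure D1:**
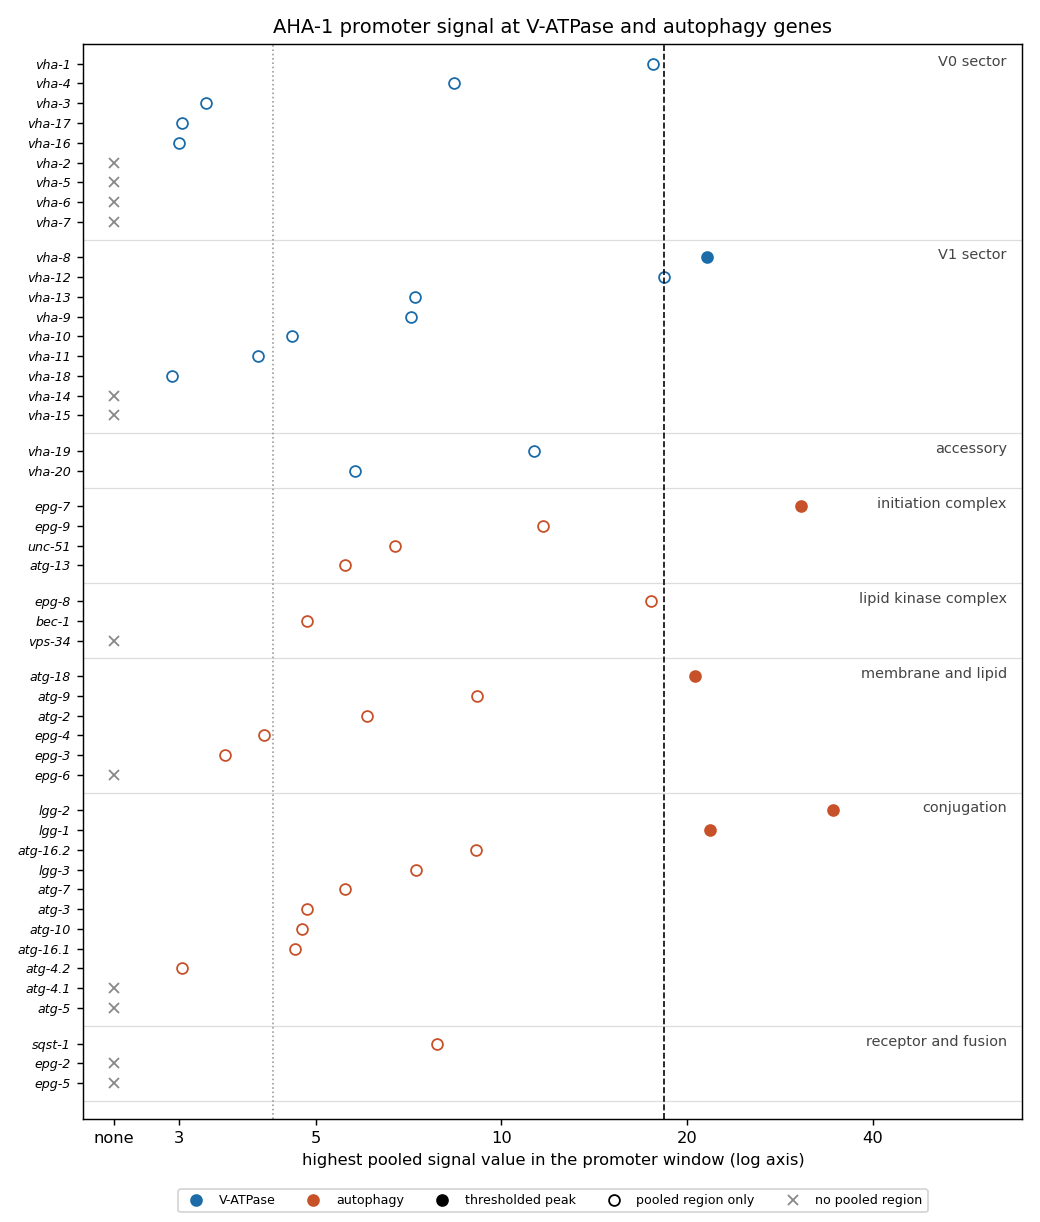
Highest pooled signal value in the promoter window of each of the 47 genes, grouped by role. Filled points are thresholded peaks, open points are other pooled regions and crosses are genes with no pooled region. The dashed line marks the weakest thresholded peak (18.35) and the dotted line the median of the pooled list (4.27). Filled points stand at lgg-2, epg-7, lgg-1, vha-8 and atg-18, and the open point of vha-12 (18.34) lies on the dashed line.

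Read by rank, the shares of both classes lay above that of all genes at each plotted cut from rank 530 downward. A region of rank 2000 or better lay in the window of 12 of the 47 genes (25.5%), against 7.69% of all genes. At rank 10000 it was 22 of 47 (46.8%), against 20.8%. At rank 200 it was 2 of 27 autophagy genes (7.41%) and 0 of 20 V-ATPase genes, against 0.951% of all genes. No list test was made on these shares. The symbol rule used no measured value, but the genes were chosen with earlier results of these data known.

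**Figure D2:**
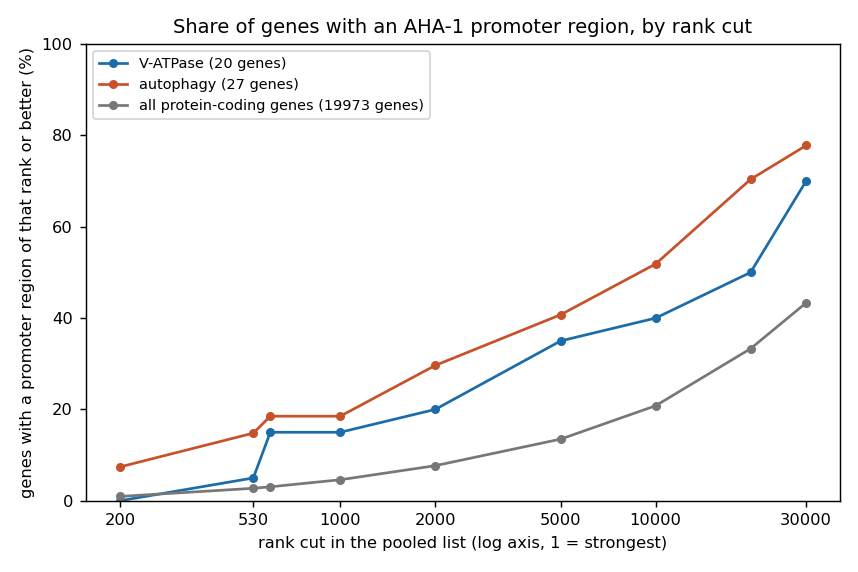
Percentage of genes whose promoter window held a pooled region at or above each rank (log axis, 1 is the strongest), for V-ATPase genes, autophagy genes and all protein-coding genes. At rank 2000 the shares were 20% of V-ATPase genes, 29.6% of autophagy genes and 7.69% of all genes, and at the end of the list 70%, 77.8% and 43.3%.

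The sequences under the strongest of these regions are shown because they differ in the words they hold. Each is the 101 bases centred on the summit, from the ce11 genome, read 5′ to 3′ on the strand of the gene. Capitals mark, on either strand, the words ACGTG and GCGTG, known from binding sites of ARNT dimers, the E-box CACGTG, and GAGAGA, a word searched for comparison. The first 5 belong to the thresholded peaks, vha-12 and vha-1 follow just below the threshold, as would epg-8, which is not printed, and atg-9 is added for its E-box close to the summit.
lgg-2, chrIV:10936165-10936265, minus strand: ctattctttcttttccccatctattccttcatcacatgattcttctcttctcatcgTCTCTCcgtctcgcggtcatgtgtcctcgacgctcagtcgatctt
epg-7, chrX:7334540-7334640, plus strand: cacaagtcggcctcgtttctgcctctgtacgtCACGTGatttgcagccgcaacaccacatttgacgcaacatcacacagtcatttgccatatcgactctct
lgg-1, chrII:6348512-6348612, minus strand: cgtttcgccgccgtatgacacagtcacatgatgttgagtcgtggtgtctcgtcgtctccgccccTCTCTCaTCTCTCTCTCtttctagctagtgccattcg
vha-8, chrIV:6790523-6790623, plus strand: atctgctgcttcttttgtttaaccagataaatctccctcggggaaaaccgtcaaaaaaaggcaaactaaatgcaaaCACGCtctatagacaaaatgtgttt
atg-18, chrV:8631493-8631593, minus strand: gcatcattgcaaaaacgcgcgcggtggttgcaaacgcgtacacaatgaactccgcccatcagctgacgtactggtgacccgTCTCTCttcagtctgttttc
vha-12, chrX:4190754-4190854, plus strand: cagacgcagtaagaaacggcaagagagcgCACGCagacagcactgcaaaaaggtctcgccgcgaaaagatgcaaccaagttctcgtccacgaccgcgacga
vha-1, chrIII:9780768-9780868, plus strand: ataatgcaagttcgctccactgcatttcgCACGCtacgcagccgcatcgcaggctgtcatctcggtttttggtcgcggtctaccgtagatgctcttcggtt
atg-9, chrV:349166-349266, plus strand: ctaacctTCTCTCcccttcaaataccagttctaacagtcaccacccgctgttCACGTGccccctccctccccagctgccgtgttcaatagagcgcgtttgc

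The 3 V-ATPase sequences in this set, from vha-8, vha-12 and vha-1, each held CACGC, the reverse complement of GCGTG, 28, 19 and 19 bp from the summit. None of them held the E-box. The autophagy gene epg-8, of rank 574 next to vha-1, also held GCGTG, at 2 places and 40 bp from the summit at the nearest. The next V-ATPase genes by score, vha-19 (11.3) and vha-4 (8.36), are not printed and held neither ARNT word within 50 bp of the summit. The match among the 3 printed V-ATPase sequences therefore does not extend to the next regions of that class. Of the 4 autophagy genes with thresholded peaks, epg-7 had the E-box, with its nearest ACGTG centred 15 bp from the summit, and lgg-2, lgg-1 and atg-18 had GAGAGA (as TCTCTC) and neither ARNT word. At atg-9 the same word of the E-box was centred 4 bp from the summit of a region that was not thresholded.

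Over the strongest regions of the 35 genes, GCGTG lay within 50 bp of the summit in 6 (17.1%), against 9.65% of the strongest regions of all protein-coding genes. The word ACGTG was found in 2 (5.71%), against 10% of regions of all genes. Both were the E-boxes of epg-7 and atg-9, since CACGTG contains ACGTG on either strand, and CACGTG was found in 2.29% of regions of all genes. GAGAGA was found in 8 (22.9%), against 9.71%. These were the regions of lgg-2, lgg-1, atg-18, atg-9, lgg-3 and atg-7 of autophagy and of vha-13 and vha-19 of the V-ATPase. Among the 530 thresholded peaks the shares were 27.2% for GCGTG, 19.8% for ACGTG, 4.72% for CACGTG and 26.8% for GAGAGA. Besides those of vha-8, vha-12, vha-1 and epg-8, the regions with GCGTG were those of vha-13 and atg-16.1. Of the regions with GCGTG, 4 belonged to the 14 V-ATPase genes with a region and 2 to the 21 autophagy genes with one. These counts are too small to tell the classes apart.

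The same words were sought, on both strands, in the 300 bases from 250 before to 50 after the outermost start of every gene, whether or not a region lay there. ACGTG was present in 9 of the 47 genes (19.1%), against 27.6% of all protein-coding genes, and GCGTG in 11 (23.4%), against 19.1%. By class, GCGTG was present in 6 of 20 V-ATPase genes (30%) and 5 of 27 autophagy genes (18.5%). The genes with GCGTG included lgg-2, whereas lgg-1 and atg-18 had neither ARNT word in these bases. The E-box CACGTG was present at atg-9, epg-5 and epg-7 (6.38%), against 5.82%. GAGAGA was present in 17 (36.2%), against 21.8%.

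The conjugation genes held the strongest score of the set. LGG-2 is the ortholog of LC3 and LGG-1 that of GABARAP, the ubiquitin-like proteins that are joined to a lipid of the growing membrane. The promoter window of lgg-2 held both a first and a further thresholded peak. The first, on chromosome IV from 10936057 to 10936372, lay between genes, 312 bp upstream of the outer start. It had a pooled signal of 34.6 and rank 148, with a signal of 23.5 in replicate 1 (rank 139) and 10.8 in replicate 2 (rank 222). The further one, from 10935374 to 10935689, lay in an intron of lgg-2, 371 bp downstream of the outer start and 493 bp upstream of an inner one, with a pooled signal of 30.5 and rank 193. Its signals were 19.4 in replicate 1 and 12.6 in replicate 2, at ranks 229 and 150.

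The lgg-1 peak lay farther out, on chromosome II from 6348404 to 6348719, 843 bp upstream of its start in intergenic sequence, and lgg-1 was still the nearest protein-coding start. Its pooled signal was 21.8 (rank 373), with 10.7 in replicate 1 (rank 706) and 13.5 in replicate 2 (rank 124). A weaker region 19 bp upstream of the same start had a pooled signal of 12.04 (rank 1086) and was listed in both replicates, at 9.496 in replicate 1 and 2.34 in replicate 2. Other genes of the conjugation system scored lower. The E1-like gene atg-7 had 5.59, the E2-like genes atg-3 and atg-10 had 4.84 and 4.76, and the ATG12 ortholog gene lgg-3 had 7.27 in a region that lay nearer to the start of rgs-5.

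The paralogous genes for ATG16, which directs the conjugation to the membrane, scored 9.11 at atg-16.2 and 4.63 at atg-16.1. The atg-16.2 region had a signal of 10.7 in replicate 1 (rank 712) and was not listed in replicate 2. Of the ATG4-like protease genes, atg-4.2 scored 3.04 and atg-4.1 had no score. Neither atg-4.1 nor atg-5 had a region of any of the 3 relaxed lists in the promoter window.

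In the initiation complex each of the 4 genes had a pooled region, and epg-7 had a thresholded peak. EPG-7 is the worm ATG11- and FIP200-like scaffold protein. Its peak, on chromosome X from 7334432 to 7334747, lay between genes, 124 bp upstream of the start, and its pooled signal was 30.6 (rank 192). The replicate signals were 16.8 (rank 308) in replicate 1 and 9.97 (rank 264) in replicate 2, ranks that lay closer together than those of the other 4 genes with thresholded peaks. The kinase gene unc-51, ortholog of ULK, scored 6.73 and its regulator gene atg-13 scored 5.57.

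The gene of the ATG101 ortholog, epg-9, had its strongest region outside the promoter window. A thresholded peak of signal 33.7 (rank 155) lay in an intron of epg-9 on chromosome IV from 2602020 to 2602335, 1037 bp downstream of the outer start and 1066 bp upstream of an inner one. In replicate 1 it had a signal of 34.7 and rank 35, and the only overlap in replicate 2 was with a region of signal 5.01 (rank 1716) whose summit lay 297 bp away. Within the window, the score of epg-9 was 11.7, in an intron 887 bp upstream of an inner start. The overlapping replicate regions had 8.03 in replicate 1 (rank 1269) and 2.25 in replicate 2 (rank 15108). The replicate 2 summit lay 173 bp from that of the scored region and 28 bp from that of a weaker pooled region (rank 4883).

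Of the lipid kinase complex, epg-8 scored 17.5 (rank 574), just below the threshold. EPG-8 is the ATG14 ortholog. The region lay on chromosome I from 9934360 to 9934675, 228 bp upstream of the start. Its signal was 17.1 in replicate 1 (rank 297) and 2.12 in replicate 2 (rank 16665), so it stood among the strong regions of one replicate and near the end of the list of the other. The Beclin gene bec-1 scored 4.84 and was listed in replicate 2 alone, and vps-34, the gene of the kinase itself, had no region of any of the 3 lists in the window.

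The genes of membrane supply and lipid transfer were led by atg-18. ATG-18 is a WIPI protein that binds the lipid made by VPS-34. Its peak, on chromosome V from 8631385 to 8631700, lay between genes, 216 bp upstream of the start, and its pooled signal was 20.6 (rank 429). The signals were 8.10 in replicate 1 (rank 1246) and 7.22 in replicate 2 (rank 571). The lipid scramblase gene atg-9 scored 9.13 and was listed in replicate 1 alone, at 5.81. The genes of the lipid transfer protein ATG-2, the EI24 ortholog EPG-4 and the VMP1 ortholog EPG-3 scored 6.06, 4.12 and 3.56.

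The related WIPI gene epg-6 differed from atg-18 in having no pooled region in its window. Each replicate list held one there, at 3.62 in replicate 1 and 5.55 in replicate 2, but these were separate sites, with summits 158 bp upstream of an inner start in replicate 1 and 935 bp upstream of the outermost start in replicate 2. Among the receptor and fusion genes, sqst-1, the p62 ortholog gene, scored 7.86 with 4.58 in replicate 1 and 2.54 in replicate 2. The replicate 1 summit lay 147 bp from that of the scored region. The scaffold gene epg-2 and the tether gene epg-5 had no region of any list in the window.

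Among V1 genes, vha-8 had a thresholded peak and vha-12 the strongest region left out of that list. VHA-8 is subunit E, part of a stalk that holds the V1 sector, and VHA-12 is subunit B, part of the ring that hydrolyses ATP with VHA-13, subunit A. The vha-8 peak, on chromosome IV from 6790415 to 6790730, had a pooled signal of 21.5 (rank 382), with 7.56 in replicate 1 (rank 1437) and 10.7 in replicate 2 (rank 227). It lay 501 bp upstream of vha-8 and 85 bp from the start of the neighbouring gene C17H12.2, so when a summit counted for its nearest start alone no V-ATPase gene had a thresholded peak. In that assignment lgg-2, epg-7, lgg-1 and atg-18 kept theirs, 8.51% of the set against 1.87% of all genes.

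The vha-12 region, on chromosome X from 4190646 to 4190961, lay 290 bp upstream of vha-12, which was the nearest start. Its signals were 5.10 in replicate 1 (rank 3832) and 10.2 in replicate 2 (rank 254). The gene of subunit A, vha-13, scored 7.24, from a region listed at 9.33 in replicate 1 and not listed in replicate 2. The subunit F gene vha-9 scored 7.15, also from replicate 1 alone, and the subunit G and C genes vha-10 and vha-11 scored 4.57 and 4.03. Of the genes for subunit H, vha-18 had 2.93, nearer to pos-1, and vha-15 had no pooled region but one of 5.03 in replicate 1. For vha-14, the subunit D gene, no list had a region in the window.

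In the V0 sector, the highest score was that of vha-1, which encodes a subunit c of the proton-carrying ring. Its region, on chromosome III from 9780660 to 9780975, lay between genes, 436 bp upstream, with sqv-3 also in reach, and had a pooled signal of 17.6 (rank 569). The signals were 4.45 in replicate 1 (rank 5529) and 12.2 in replicate 2 (rank 164). Its paralogs scored lower, with 3.32 at vha-3 and no pooled region at vha-2, for which replicate 1 listed one of 2.05, and the subunit c'' gene vha-4 had 8.36. The genes for subunit a, vha-5, vha-6 and vha-7, had no region of any list in the window, and vha-17 and vha-16, for subunits e and d, had 3.03 and 3.005. The accessory genes vha-19, the Ac45 ortholog, and vha-20, the prorenin receptor ortholog, scored 11.3 and 5.79. The vha-19 region was listed at 9.11 in replicate 1 (rank 984) and not in replicate 2, and that of vha-20 at 4.67 in replicate 2 (rank 2136) and not in replicate 1.

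The replicates did not rank these genes alike. A region lay in the window of 28 of the 47 genes in replicate 1, against 37.7% of all genes, and of 22 genes in replicate 2, against 28.9%. Both lists held one for 15 genes (31.9%), against 15.9% of all genes. By class these were 11 of 27 autophagy genes (40.7%) and 4 of 20 V-ATPase genes (20%), the latter near the share of all genes. The 2 replicate regions of a gene could be separate sites, and when they had to overlap it was 13 genes, against 10.8% of all genes. Neither replicate list held one for 12 genes (25.5%), against 49.3% of all genes. No list of the 3 held one for 9 genes, against 42.5% of all genes: vha-5, vha-6, vha-7, vha-14, vps-34, atg-4.1, atg-5, epg-2 and epg-5. The strongest pooled region of the 35 genes that had one was overlapped in both replicates for 12 genes, in replicate 1 alone for 12, in replicate 2 alone for 7 and in neither for 4. This split was not counted over all genes, so it cannot be read as particular to the set.

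Among the 8 genes whose region ranked 600 or better in the pooled list (17.02%, against 3.06% of all genes), lgg-1, vha-8, vha-12 and vha-1 ranked at least 5 times better in replicate 2 than in replicate 1. Their ranks in replicate 1 were 5.69, 6.33, 15.1 and 33.7 times those in replicate 2. The gene epg-8 went the other way, with a rank in replicate 2 that was 56.1 times that in replicate 1. Over the pooled regions of rank 600 or better listed in both replicates, 9.36% ranked at least 5 times better in replicate 2 and 19.1% in replicate 1. This comparison was chosen after its values were seen, and the lists differ in length, with 24611 regions in replicate 1 and 18195 in replicate 2.

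**Figure D3:**
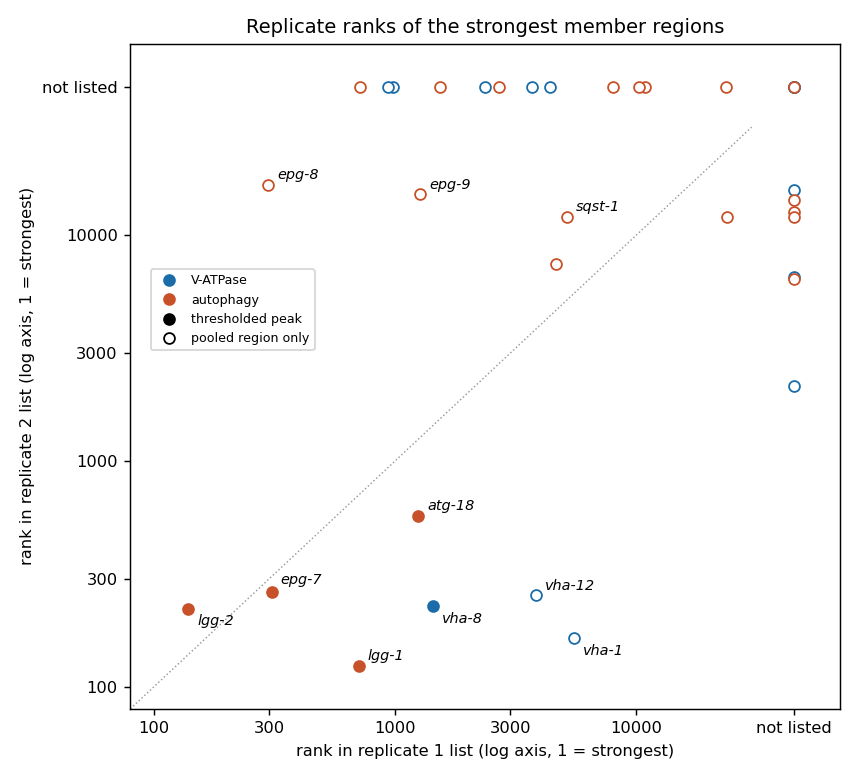
Rank of the replicate regions that overlap the strongest pooled region of each of 35 genes, in replicate 1 (x axis) and replicate 2 (y axis), both log axes on which 1 is the strongest. Points marked "not listed" had no overlapping region, 4 of them in either list, and the dotted line marks equal ranks. The regions of vha-8, vha-12 and vha-1 lie below the line, at ranks 227, 254 and 164 in replicate 2, and epg-8 lies far above it.

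As over all genes, the regions sat mostly upstream, where most of the promoter window lies, and in intergenic sequence. Of the 35 strongest regions, 22 were intergenic (62.9%, against 55.1% of the strongest regions of all genes). Introns held 5 of the 35, against 18.7% of those of all genes. Untranslated or non-coding exons held 6 (against 8.73%) and coding exons 2 (against 14.7%). Positions were taken from the nearest of the gene's starts that had the summit in its window. The median summit position was -290 bp (quartiles -446 and -137.5 bp), against -308 bp over all genes with a region (quartiles -608 and -107 bp). The summits of vha-20, atg-13 and vha-11 lay downstream of the start, by 136, 138 and 6 bp (8.57% of the 35 genes, against 14% of all genes with a region). At epg-9, atg-2, atg-3 and epg-3 the region was in reach only of a start inside the gene.

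**Figure D4:**
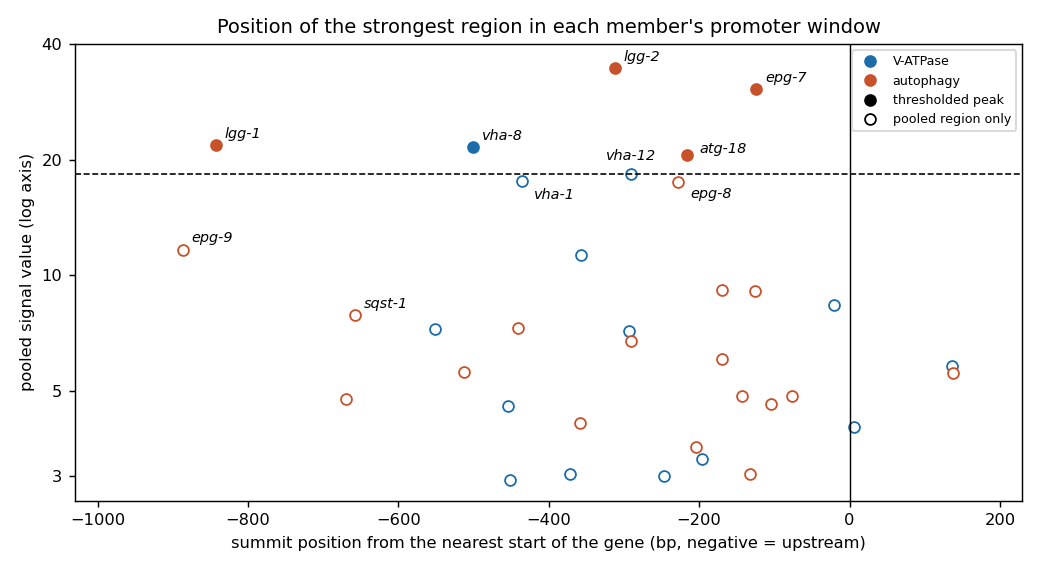
Summit position of the strongest pooled region in each promoter window (negative is upstream), against its pooled signal value (log axis). Positions are in bp from the nearest of the gene's starts that had the summit in its window. The dashed line is the weakest thresholded peak (18.35). The thresholded peaks lie between -843 bp at lgg-1 and -124 bp at epg-7, and 3 weak regions lie right of the start.

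Neighbouring genes were in reach of some of the same regions. The windows of other protein-coding genes held the strongest region of 8 of the 35 genes, namely vha-8, vha-1, vha-4, lgg-3, atg-3, vha-3, vha-17 and vha-18. For vha-8, lgg-3, vha-17 and vha-18 the nearest start was that of the neighbour, and for the other 31 genes it was their own. How often regions were shared in this way over all genes was not counted, so sharing cannot be read as particular to the set. When a summit counted for its nearest start alone, 31 of the 47 genes (65.96%) had a pooled region, against 36.6% of all genes. The most distant case was atg-9, whose nearest thresholded peak lay 793864 bp away, and the median distance to a thresholded peak over the 47 genes was 45611 bp. These distances were not computed over all genes, so they cannot be read as particular to the set either.

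Further genes of lysosomes, of TOR signalling and of vesicle fusion outside the symbol rule were scored in the same way. Of 35 such genes, 4 had a thresholded peak in the window (11.4%, against 2.73% of all genes) and 20 a pooled region (57.1%, against 43.3%). The thresholded genes were rbc-2, a rabconnectin gene (signal 35.3), ccz-1, of the complex that activates RAB-7 (30.2), rab-7 itself (20.3) and rheb-1, of the TOR activator RHEB (19.6). All 4 peaks were in reach of other genes: that of rbc-2 of ndua-8 and Y54F10AM.15, that of ccz-1 of tag-65 at the same distance, and those of rab-7 and rheb-1 lay nearer to W03C9.5 and spk-1. The V0 subunit a gene unc-32 had 3.46, and the TOR kinase gene let-363 and the lipid kinase partner gene vps-15 had no region in the window. The promoter score of hlh-30 was 14.3 (rank 804), and a region of signal 101.8 lay within the gene.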

How the data were processed

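ChIP-seq region lists on ce11 were used for the 2 replicates, for both pooled, and after IDR thresholding. Per the text files deposited beside the lists, relaxed lists were made from alignments and a control, and the thresholded list from the pooled and replicate lists. The aligner, peak caller, IDR threshold and read depth are not given in the sources used here. Signal values are those the authors deposited. The deposited −log10 q-value reached 3.33 in the pooled list, shared by 1074 regions, and was not used to rank. The control data and the lists on ce10 were not analysed here.

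Summits (region start plus offset) were assigned to starts of 19973 Ensembl release 115 protein-coding genes on 6 chromosomes, with pandas 2.3.3 in Python 3.11.15. Replicate regions were matched to pooled ones by an overlap of at least 1 bp. RefSeq gave identical gene starts and ends for 38 of the 47 genes on the same assembly. Coordinates are 1-based. Window assignment was tested on simulated data. Words were sought in the RefSeq WBcel235 genome sequence.

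The genes, their role groups, the 35 further genes and the alternatives were chosen with earlier results of these data known. Named genes are those with thresholded peaks, the 12 of highest score, the highest of each role group and those with no region. Other genes are named to complete their role group, after their values were seen. No test was run, because there is 1 group and no enrichment of lists was tested.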

Additional observations from a re-analysis of the deposited data

How the results depend on the processing

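Read depth is unknown, and 2 replicates limit every count. The 5 genes with a thresholded peak became 3 when the window reached only 500 bp upstream and 100 bp downstream (lgg-2, epg-7 and atg-18, against 2.14% of all genes), and 2 when only the thresholded peaks above their median signal were used (lgg-2 and epg-7, against 1.34%). With the 530 strongest regions of 1 replicate, the count was 6 without replicate 1 (lgg-2, epg-7, lgg-1, vha-8, vha-12 and vha-1, against 2.31%) and 3 without replicate 2 (lgg-2, epg-7 and epg-8, against 2.63%). The genes with a relaxed region were 22 without replicate 1 (against 28.9% of all genes) and 28 without replicate 2 (against 37.7%), in place of 35, and the V-ATPase genes among them 7 and 11, in place of 14. Genes with a region in both replicates were 9 with the narrow window (against 8.92%) and 25 with one reaching 2000 bp upstream and 500 bp downstream (against 29.4%), in place of 15. The regions with GCGTG were 3 within 25 bp (against 5.13% of the strongest regions of all genes) and 10 within 100 bp of the summit (against 1212 of 7499), and those with ACGTG 4 within 100 bp (against 18.2%). The causes were not tested. The other alternatives changed each count by at most 1.5 times.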

Other observations

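Some genes also had pooled regions inside the gene and outside the promoter window. The subunit D gene vha-14 had a region of signal 9.002 (rank 1955) within the gene, vha-13 one of 8.02, and vha-7 and vps-34 had regions of 5.69 and 5.68. Of the further genes, aak-2, which encodes an AMP-activated kinase subunit, had a thresholded peak of signal 19.7 within the gene, and let-363 had a region below the threshold, of 13.3.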
